A study of Homo sapiens with 19 samples.

Results

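The genes encoding the microtubule motors, that is the kinesins (KIF), the chains of cytoplasmic dynein (DYNC and DYNL) and the subunits of dynactin (DCTN), were followed through the RNA-seq and eCLIP libraries of the study. Members were chosen by symbol, as the rows whose Ensembl ID carries a GENCODE name that begins with KIF and a digit, DYNC, DYNL or DCTN. This gave 64 of 19942 genes, namely 39 kinesins, 19 dynein chains and 6 dynactin subunits, and 661 of their transcripts among 256980. The rule uses names and no measured value. The cells were SH-SY5Y, a human neuroblastoma line, and the study asked which RNAs are bound by the stress granule (SG) proteins G3BP1 and G3BP2 and which enter SGs under sodium arsenite (AS). Poly-A RNA-seq was made of cells given a control siRNA (siCtrl) or an siRNA against G3BP1 (siG3BP1) or G3BP2 (siG3BP2). RNA-seq was also made of AS-treated cells, as cleared lysate (Total) and as SG cores captured with an anti-G3BP1 antibody (SG). The paper names poly-A libraries for the knockdowns and does not say how RNA was selected for Total and SG. rRNA-depleted RNA-seq was made of untreated cells and of cells given 500 μM AS for 1 h. Each of these 7 conditions had 1 library, so none of their differences has a replicate check. Crosslinking and immunoprecipitation (eCLIP) of G3BP1 and of G3BP2 had 2 libraries each from untreated and AS-treated cells. The labels of the knockdown, SG and eCLIP libraries give 50 mM AS for 1 h for all of them, the untreated ones included, so that the dose in these sets cannot be read from the labels. The paper's methods give 500 μM for 1 h as its AS exposure.

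Kinesins and cytoplasmic dynein are ATP-driven motors that walk along microtubules. Most kinesins move cargo toward the plus ends, which in axons point away from the cell body, whereas dynein, with dynactin as its activating partner, carries cargo back toward the minus ends. In neurons, both directions serve vesicles, mitochondria and RNA granules, and in dividing cells other kinesins build the spindle and separate the chromosomes. Dynein-1 works in the cytoplasm, and dynein-2 carries proteins back along cilia.

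Libraries stood as follows. In siCtrl, 10 of 11 markers of adrenergic neuroblastoma cells were above 1 TPM, an abundance corrected for transcript length and library size, with TH at 0.304, and all 5 markers of dividing cells were. Among 6 mesenchymal markers 4 were above 1 TPM, with PRRX1 listed at 0 and VIM at 1514 TPM. G3BP1 fell from 18.7 TPM in siCtrl to 5.996 in siG3BP1, and G3BP2 from 38.1 TPM to 11.4 in siG3BP2. TPM keeps no depth. The numbers behind the eCLIP values, in units of 1e6, summed to between 4.27 and 26.2 per library, replicate 2 being the smaller in every group.

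Of the 64 members, 54 were above 1 TPM in siCtrl and 1, KIF2B, was listed at 0 in all 5 libraries with TPM values. The most abundant were the light chains DYNLL1 with 541 TPM and DYNLRB1 with 350 TPM. They were followed by DYNC2I2 with 175 TPM, the chromosome-arm motor KIF22 with 147 TPM, the light chain DYNLT1 with 117 TPM, and DCTN1, the p150Glued arm of dynactin, with 112 TPM. KIF1A, the carrier of synaptic vesicle precursors, led the cargo kinesins with 104 TPM. DYNC1H1, the dynein-1 heavy chain, was at 66.6 TPM. The kinesin-1 heavy chains KIF5A, KIF5B and KIF5C were close to each other in siCtrl, with 12.9, 13.3 and 10.3 TPM.

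The study's eCLIP motifs for G3BP1 and G3BP2 were looked up in the canonical transcripts of the members. The shorter motif has 9 letters, CCAGCCTGG or CCAGGCTGG, each being the reverse complement of the other. Of the longer one the first 12 letters were searched, without its last letter, on the transcript strand. The windows below show the matches in the coding sequence of DYNC1H1 and KIF1B, both of which were high in SG. They are read from the GRCh38 reference with GENCODE 44 transcripts, 5′ to 3′ on the strand of the gene, with the match in capitals and 9 bases on each side.
DYNC1H1 CDS, chr14:102006138-102006164, plus strand: ccttggaggCCAGGCTGGggggttccc
KIF1B CDS, chr1:10258642-10258668, plus strand: agaagaaagCCAGGCTGGcatcattcc

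DYNC1H1 held 10 short matches, 9 of them in its 3′UTR, and 2 long ones. KIF1C held 6 short and 2 long matches, KIF1B 5 and 1, KIF18B 5 and none, and KIF3A 4 and 2. In all, 17 of 64 members (26.6%) held a short match and 8 (12.5%) a long one, beside 28.0% and 8.86% of all 19863 canonical transcripts. A match in these letters is a description and not a binding site.

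The comparison of SG with Total addresses which motor mRNAs are found in SG cores. The mRNAs of the large motors were higher in SG and those of most small light chains were lower. A gene was called SG-enriched when TPM + 1 was more than 2-fold higher in SG, with SG above 1 TPM, and SG-depleted when it was less than 0.5 of Total, with Total above 1 TPM. Of 56 members that reached 1 TPM in either library, 38 were SG-enriched (67.9%) and 7 SG-depleted (12.5%), beside 62.9% and 9.45% of all 13560 such genes. The median log2 fold was 2.44 for members and 1.51 for all genes. With SG rescaled so that the median ratio over genes was 1, 28 of 54 members were enriched (51.9%) and 13 depleted (24.1%), beside 35.3% and 25.6% of 12778 genes. What follows gives TPM in Total and SG, 1 library each, and the log2 fold of TPM + 1.

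All 3 kinesin-1 heavy chains, which carry mitochondria and vesicles along axons, were SG-enriched. KIF5A (ENSG00000155980, chr12:57546026-57586633) went from 0.631 TPM in Total to 46.8 TPM in SG (log2 fold 4.87). KIF5B (ENSG00000170759, chr10:32009015-32056425) went from 15.7 to 201 TPM (3.60), and KIF5C (ENSG00000168280, chr2:148875227-149026759) from 0.847 to 32.0 TPM (4.16). KIF5B was therefore the most abundant of the 3 in both libraries, although the 3 were at similar TPM in siCtrl. KIF5A overlaps DCTN2 on the opposite strand over 1199 nt, and how the counting treated strand is not given in the sources used here.

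Of 12 other cargo kinesins, 11 were SG-enriched and KIF17 was at 1.37 and 2.55 TPM (0.58). The top fold among members was that of KIF1B (ENSG00000054523, chr1:10210570-10381603), which carries synaptic vesicle precursors and mitochondria, going from 1.41 to 120 TPM (5.65). KIF21A, a kinesin-4 of neurons, went from 8.999 to 380 TPM (5.25), and KIF13A, a carrier of endosomes, from 0.215 to 35.9 TPM (4.92). KIF1A went from 32.3 to 262 TPM (2.98), and KIF3C, of the kinesin-2 family, from 39.6 to 150 TPM (1.90). These 12 genes had canonical transcripts of 3958 to 10855 nt.

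Among 14 division kinesins that reached 1 TPM in Total or SG, 12 were SG-enriched. KIF18B, which shortens astral microtubules in mitosis, went from 8.33 to 215 TPM (4.54). KIF2C, a microtubule depolymerase at centromeres, went from 33.6 to 70.3 TPM (1.04), and with SG rescaled to the median ratio its log2 fold was -0.40. The remaining pair was KIF20A, a kinesin of cytokinesis, with 55.0 and 110 TPM (0.99), and KIF22, with 112 and 118 TPM (0.07). KIF22 had the shortest canonical transcript of this group, 2081 nt. KIF4B, at 1.75 TPM in SG, is an intronless copy of KIF4A, so that its reads and those of KIF4A may be mixed. The 5 markers of dividing cells summed to 288 TPM (Total) and 1025 TPM (SG), but did not move together. MKI67 was at 11.4 and 502 TPM and TOP2A at 34.5 and 277 TPM, whereas CCNB1 was at 74.98 and 98.0, CDK1 at 26.1 and 14.8 and PLK1 at 141 and 134 TPM. Their part in the result was not tested.

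Among the cilium and remaining kinesins that reached 1 TPM in Total or SG, KIF7, of Hedgehog signalling, went from 3.71 to 29.9 TPM (2.71). KIF27 went from 0.254 to 6.54 TPM (2.59), KIF26A from 20.5 to 129 TPM (2.60) and KIF26B from 0.740 to 37.4 TPM (4.47). KIF9, a kinesin of motile cilia, was the sole SG-depleted kinesin, going from 11.5 to 3.38 TPM (-1.52). KIF12 was under 0.1 TPM in all 5 libraries with TPM values.

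The dynein-1 chains were split. DYNC1H1 (ENSG00000197102, chr14:101964573-102056443) went from 19.8 to 424 TPM (4.35), the top TPM of any member in SG. DYNC1LI2, a light intermediate chain that binds adaptors, went from 11.4 to 87.7 TPM (2.83), whereas its paralog DYNC1LI1 was at 36.2 and 32.5 TPM (-0.15). DYNC1I1, the intermediate chain enriched in neurons, dropped from 11.6 to 1.03 TPM (-2.64), whereas its paralog DYNC1I2 was at 41.8 and 64.5 TPM (0.61). In dynein-2, DYNC2H1 went from 0.485 to 14.0 TPM (3.33) and DYNC2I1 from 2.13 to 33.9 TPM (3.48), while DYNC2I2 and DYNC2LI1 had log2 folds of -0.55 and -0.49 and were in neither class.

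Of 7 light chains that reached 1 TPM in Total or SG, 4 were SG-depleted and 1 was SG-enriched. DYNLL1 (ENSG00000088986, chr12:120469850-120498493) was at 577 and 103 TPM (-2.48), and DYNLRB1 (ENSG00000125971, chr20:34516395-34540958) at 442 and 47.3 TPM (-3.20). DYNLT2B was at 37.1 and 4.96 TPM (-2.68) and DYNLT1 at 136 and 28.5 TPM (-2.21). DYNLL2 (ENSG00000264364, chr17:58083419-58095542) went the other way, from 18.7 to 115 TPM (2.56). DYNLL1 and DYNLL2 are close paralogs with coding sequences of the same length, 267 nt, but the canonical transcript of DYNLL1 had a 3′UTR of 286 nt and that of DYNLL2 one of 6266 nt. DYNLL1 overlaps SRSF9 and a long non-coding RNA on the opposite strand.

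Dynactin showed the same kind of split. DCTN5 (ENSG00000166847, chr16:23641466-23677472), the p25 subunit of the pointed end, went from 8.30 to 118 TPM (3.68), DCTN1 from 81.8 to 303 TPM (1.88) and DCTN4 from 16.7 to 59.9 TPM (1.79). DCTN3, the p24 subunit, was SG-depleted, with 98.2 and 20.3 TPM (-2.22). DCTN2, the dynamitin subunit, was at 137 and 82.9 TPM (-0.71) and DCTN6 at 31.0 and 23.3 TPM (-0.39). DCTN3 and DCTN5 have coding sequences of 558 and 546 nt, but 3′UTRs of 239 and 10331 nt. DCTN5 overlaps a long non-coding RNA on the same strand over 5489 nt.

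**Figure D1:**
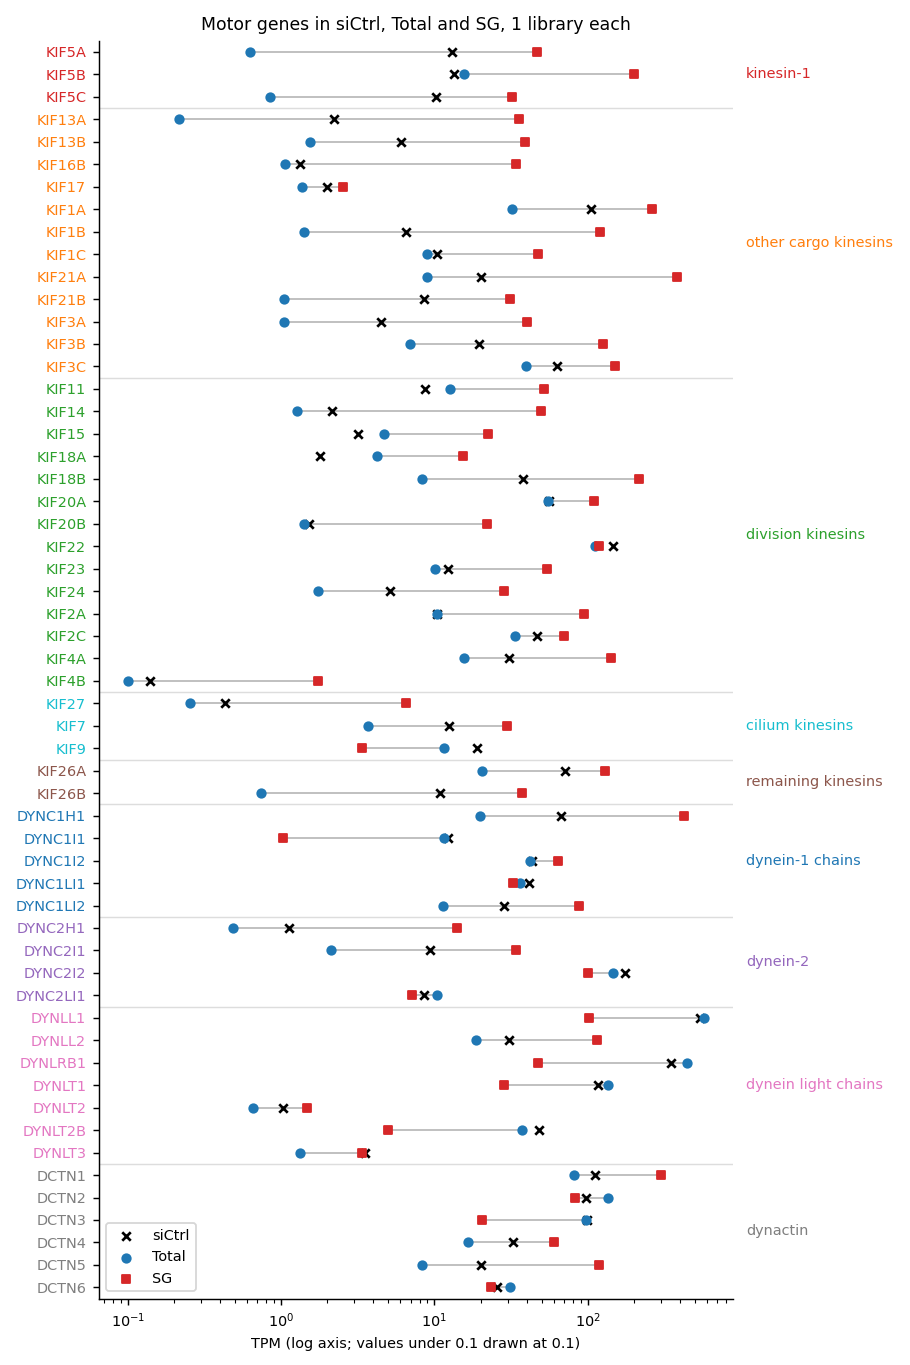
TPM (horizontal log axis) of the 56 members that reached 1 TPM in Total or SG, by role, in siCtrl (crosses), Total (circles) and SG (squares), 1 library each; a line joins Total and SG. Squares lie to the right of circles for the large kinesins and DYNC1H1, at 19.8 and 424 TPM, and by more than 2-fold to the left for DYNLL1, DYNLRB1, DYNLT1, DYNLT2B, DYNC1I1, DCTN3 and KIF9.

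The classes followed transcript length, as they did over all genes. The 38 SG-enriched members had canonical transcripts of 2862 to 19940 nt (median 6206 nt) and the 7 SG-depleted ones of 625 to 3337 nt (median 730 nt), beside medians of 4358 and 1123 nt for all SG-enriched and SG-depleted genes. None of the 10 members of up to 2000 nt was SG-enriched, whereas 34 of the 35 members above 4000 nt were. Most long genes of any kind were SG-enriched too. Among all genes these were 3686 of 4099 above 4000 and up to 8000 nt, and 1112 of 1161 above 8000 nt. Of shorter ones, 253 of 1010 of up to 1000 nt were SG-enriched, and 521 of 2456 above 1000 and up to 2000 nt. Over 56 members Spearman's rho of the log2 fold with transcript length was 0.81, with the CDS 0.68 and with the 3′UTR 0.63, and over 13548 genes these were 0.70, 0.54 and 0.51. These are descriptions across genes of 1 pair of libraries. DYNC1I1, with 2947 nt, and KIF9, with 3337 nt, lay low among genes above 2000 and up to 4000 nt, whose quartiles of the log2 fold were 0.55 and 2.03 and whose 5th percentile was -0.72. Short matches were found in 14 of 38 SG-enriched members (36.8%) and in 0 of 7 SG-depleted ones, and per kb of transcript there were 0.176 in the SG-enriched members. Over all genes the shares were 36.7% and 13.8%, and per kb 0.155 and 0.170.

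**Figure D2:**
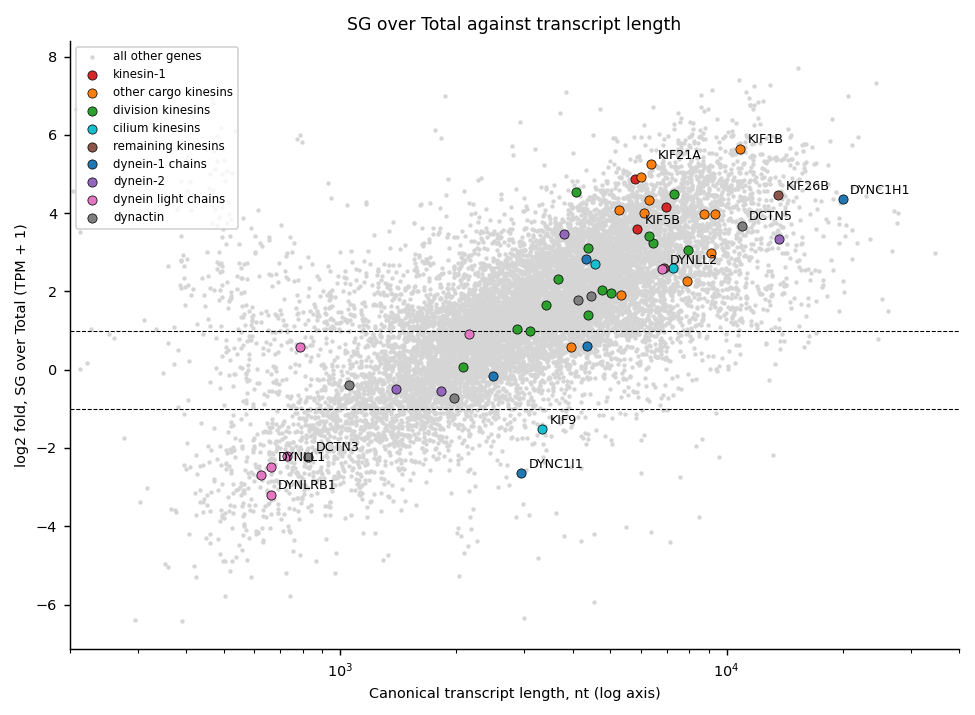
Log2 fold of TPM + 1, SG over Total (vertical axis), against the length of the canonical transcript in nt (log axis), for members coloured by role and all other genes in grey; dashed lines mark 2-fold. DYNLL1 (663 nt, -2.48) and DYNLL2 (6807 nt, 2.56) lie far apart on both axes, and DYNC1I1 (2947 nt, -2.64) and KIF9 (3337 nt, -1.52) lie below most genes of their length.

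Total was itself low for many long motor mRNAs when set beside siCtrl. The ratio of TPM was below 0.5 for 21 of 54 members (38.9%), beside 27.2% of all 12173 genes above 1 TPM, and above 2 for 1 member, KIF18A (2.34), beside 2.37%. With genes above 10 TPM alone, 12 of 38 members were below 0.5, beside 20.5% of 7217 genes. KIF5A had a ratio of 0.049, KIF26B 0.068, KIF5C 0.082, KIF13A 0.097 and KIF21B 0.12, whereas KIF5B had 1.17 and DYNLRB1 1.26. Over all genes the median ratio was 1.02 for transcripts of up to 1000 nt and 0.468 for those above 8000 nt. Total came from AS-treated cells and from cleared lysate, siCtrl from whole cells given an siRNA. AS, the siRNA, the lysate step and any difference in RNA selection cannot be told apart. With siCtrl in place of Total as the reference, a choice made after seeing the data, 35 of 56 members were SG-enriched and 7 SG-depleted, beside 53.8% and 10.3% of 13598 genes. The log2 fold of TPM + 1 of SG over siCtrl was 1.78 for KIF5A, 3.81 for KIF5B, 1.55 for KIF5C, 2.65 for DYNC1H1, -2.39 for DYNLL1 and -2.71 for DYNC1I1.

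The knockdowns address whether motor mRNAs change when G3BP1 or G3BP2 is lowered. Few did. With siG3BP1, 2 of 54 members had a ratio of TPM to siCtrl above 2 and 0 had one below 0.5, beside 2.53% and 3.69% of all 12280 genes. With siG3BP2, 0 were above 2 and 3 of 54 were below 0.5, beside 2.43% and 5.62% of 12229 genes. These counts were close to those of all genes. The median ratio of members was 0.908 with siG3BP1 and 0.874 with siG3BP2, beside 0.940 and 0.916 for all genes. Both ratios share the siCtrl library. The 3 members below 0.5 with siG3BP2 had long canonical transcripts, of 9334 nt (KIF21B), 13593 nt (KIF26B) and 13683 nt (DYNC2H1). All 3 were also below 0.5 in Total over siCtrl. Other tested members above 8000 nt were not below 0.5 with siG3BP2. Among them KIF1A was at 0.51, DYNC1H1 at 0.75, and KIF1B at 6.55 TPM in siCtrl and 6.60 TPM in siG3BP2. Whether the siG3BP2 ratio follows transcript length was not tested.

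KIF18A, which holds chromosomes at the spindle equator, was at 1.80 TPM in siCtrl, 3.99 in siG3BP1 and 2.39 in siG3BP2 (ratios 2.22 and 1.33). DYNC2H1 (ENSG00000187240, chr11:103109410-103479863), the motor chain of dynein-2, was at 1.13 TPM in siCtrl, 2.40 in siG3BP1 and 0.430 in siG3BP2 (2.12 and 0.38). The 2 knockdowns thus stood on opposite sides of siCtrl for DYNC2H1, at levels near 1 TPM, and on TPM + 1 neither gene passed 2-fold with siG3BP1, nor did DYNC2H1 with siG3BP2 (log2 ratio -0.58).

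KIF26B (ENSG00000162849, chr1:245154985-245709432), an atypical kinesin, was at 10.9 TPM in siCtrl, 9.74 in siG3BP1 and 1.64 in siG3BP2 (0.89 and 0.15). It was the sole member above 10 TPM past the rule in either knockdown. KIF21B (ENSG00000116852, chr1:200969390-201023714), a neuronal kinesin-4 that also slows microtubule growth, was at 8.53 TPM in siCtrl, 5.996 in siG3BP1 and 2.98 in siG3BP2 (0.70 and 0.35). KIF1A was at 104, 61.1 and 53.8 TPM (0.59 and 0.51) and was just inside the bound. KIF5C was at 10.3 TPM in siCtrl, 5.16 in siG3BP1 and 11.2 in siG3BP2 (0.50 and 1.09), likewise just inside, while KIF5A had 0.85 and 0.83 and KIF5B 1.29 and 1.25. DYNC1H1 was at 66.6, 53.4 and 50.0 TPM, DCTN1 at 112, 77.8 and 92.4 TPM, DYNLL1 at 541, 517 and 531 TPM, and DYNLL2 at 30.6, 27.7 and 26.3 TPM. The markers of dividing cells summed to 316, 323 and 323 TPM in siCtrl, siG3BP1 and siG3BP2. In bulk libraries fewer cells of a type and less RNA per cell cannot be told apart.

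**Figure D3:**
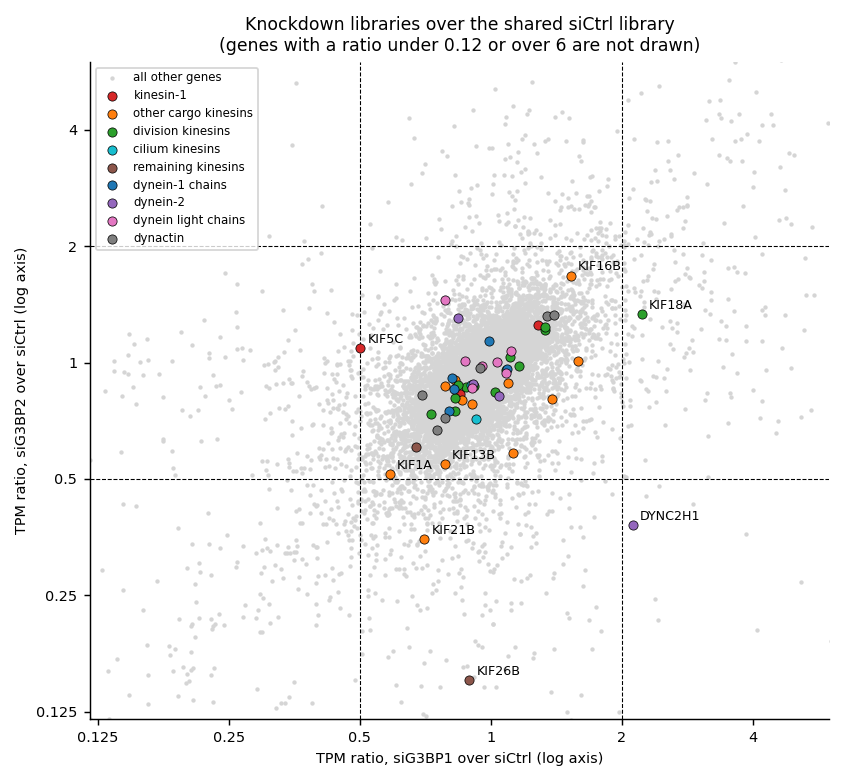
Ratio of TPM to siCtrl in siG3BP1 (horizontal) and siG3BP2 (vertical), both log axes, for members coloured by role and other genes in grey; dashed lines mark ratios of 0.5 and 2, and both axes share the siCtrl library. KIF26B (0.89 and 0.15), KIF21B (0.70 and 0.35), KIF18A (2.22 and 1.33) and DYNC2H1 (2.12 and 0.38) lie outside the central square, and KIF5C (0.50 and 1.09) at its edge.

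AS and untreated cells were compared in the rRNA-depleted libraries, whose values are reads per kb of each transcript, summed over the transcripts of a gene. A read in an exon that isoforms share counts in each of them, so sums are comparable between the libraries but not between genes. The ratio of AS to untreated was above 2 for 1 of 53 members above 1 in either library and below 0.5 for 0, beside 7.68% and 1.43% of all 12693 genes. The median ratio was 1.20 for members and 1.22 for all genes, so that most motor genes lay near the shift of the library. KIF5A went from 55.4 to 67.7 (1.22), KIF5B from 22.2 to 28.1 (1.26) and KIF5C from 197 to 209 (1.06). DYNC1H1 went from 1482 to 1420.3 (0.96), DCTN1 from 379.7 to 343 (0.90), DYNLL1 from 541 to 742 (1.37) and DYNLL2 from 9.85 to 13.7 (1.39).

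KIF15 (ENSG00000163808, chr3:44761721-44873376), a spindle kinesin that acts beside KIF11, was the member past 2-fold, with 2.94 untreated and 15.2 with AS (5.18). Its canonical transcript held 31 reads untreated and 133 with AS, a ratio of values of 5.05 (95% exact interval 3.40 to 7.73, counting error only). A transcript annotated as a retained intron held 4 and 58 reads, with a ratio of 17.1 (6.32 to 64.8). The overlapping gene TMEM42 was at 0.329 and 0.326, and the adjacent KIAA1143 at 0.237 and 0.419. In the libraries with TPM values KIF15 was at 3.18 TPM in siCtrl and 4.67 TPM in Total. Its partner KIF11 went from 70.9 to 89.9 (1.27). The next ratios were those of KIF9 (1.81), KIF18A (1.58) and KIF20B (1.57), and the lowest that of DYNC1I1 (0.79).

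Of the 661 transcripts, 12 had a ratio above 2 and 9 lay below 0.5, counting those above 1 in either library, beside 6.84% and 2.01% of all 100705 such transcripts, and 517 member transcripts were above 1. The 12 came from 6 genes and the 9 from 5, and isoforms of a gene can share reads. The counting interval left out 1 for 6 of the 12 and 1 of the 9. That transcript was a short KIF5C isoform of 505 nt without a defined CDS, with 26 reads untreated and 0 with AS. The 95% exact interval of its ratio reached up to 0.180, while the gene as a whole had a ratio of 1.06. It was chosen after its values were seen.

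**Figure D4:**
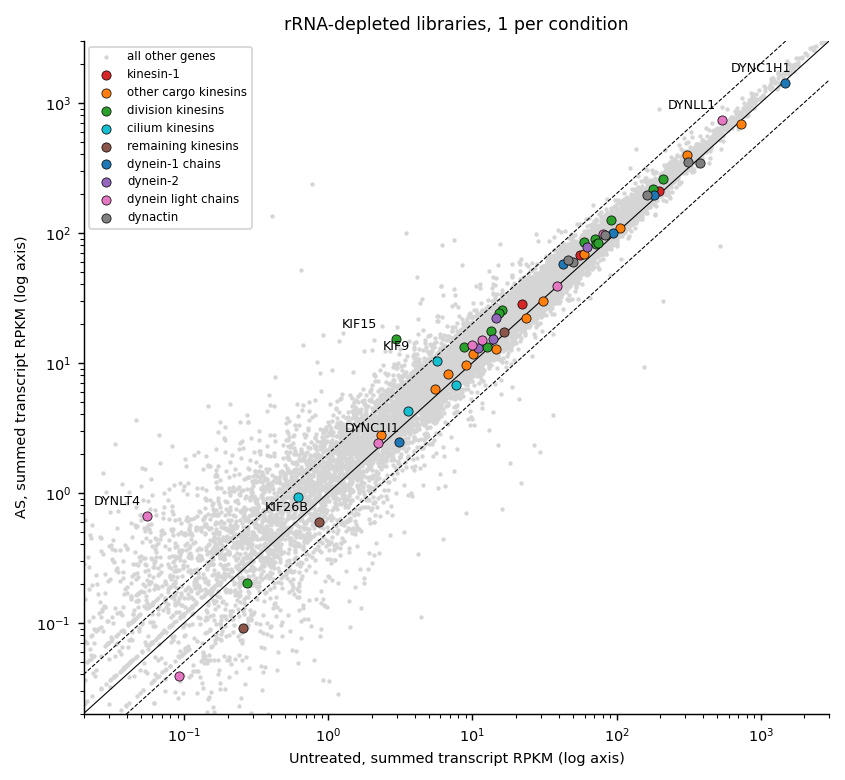
Summed transcript RPKM in AS (vertical) against untreated (horizontal) rRNA-depleted libraries, both log axes, 1 library each, for members coloured by role and other genes in grey; the solid line marks equal values and dashed lines 2-fold. KIF15 (2.94 and 15.2) lies above the upper dashed line, DYNLT4 does so with both values under 1, members below the lower line are also under 1 in both libraries, and the other labelled members lie between the lines.

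eCLIP addresses which motor RNAs G3BP1 and G3BP2 contact and whether AS alters this. The values are log10 of a whole number plus 1 per gene, and were scaled here so that all 8 libraries had the same total. The top values among members were those of genes with long spans. DYNC1I1, of 338 kb, was between 3.57 and 3.94 in the 8 libraries (median 3.86), KIF1A between 3.60 and 3.66 (3.62) and DYNC2H1 between 3.59 and 3.62 (3.61). DYNC1H1 was between 3.38 and 3.64 (3.45). At the other end, DYNLT2 was at 0 in 7 of 8 libraries and KIF15 was between 0 and 1.60 (1.36), although KIF15 spans 112 kb. KIF6, of 395 kb, ranked 5 of 64, between 3.48 and 3.56 (3.53), but was under 1 TPM in all 5 libraries with TPM values. Of the 8 members under 1 TPM in all 5, KIF6 was the highest, KIF25 came next (2.82) and KIF2B was the lowest (0.87). High values were thus also found for genes with little RNA in those libraries, and contact cannot be read from the value alone. Spearman's rho with the gene span was 0.82 over 64 members and 0.86 over 19910 genes, and with the siCtrl TPM it was -0.02 and 0.14. Genes are not replicates, and the points share libraries, so no p is given.

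Per kb of span the members still differed. The kinesin-1 paralogs KIF5A and KIF5B span 40.6 and 47.4 kb. The scaled eCLIP value per kb (mean of 8 libraries) was 23.7 for KIF5A, 1.76 for KIF5B and 11.7 for KIF5C. These 3 were at similar TPM in siCtrl, but in Total, from AS-treated cells, at 0.631, 15.7 and 0.847 TPM. Libraries from AS-treated cells are part of the mean, and it was not corrected here for RNA level. On the log10 scale KIF5A was between 2.89 and 3.14 and KIF5B between 1.65 and 2.101, without overlap in the 8 libraries. KIF1A with 38.2, DYNC1H1 with 33.4, DYNC1I2 with 31.6, KIF2A with 25.3 and KIF5A led the members per kb, and KIF15 was at 0.184. The median per kb was 7.19 for the 56 members that reached 1 TPM in Total or SG and 7.84 for all such genes. Short motif matches per kb of span bore little relation to the value per kb, with a rho of 0.09 over 64 members and 0.18 over 19863 genes. KIF5B held 26 short matches in its span and KIF5A 30.

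With AS, no member passed in either protein. In limma with Benjamini-Hochberg adjustment at 0.05, 0 of 63 members were called for G3BP1 and 0 of 63 for G3BP2, beside 0% of 18888 and 0% of 19035 genes. At an unadjusted p under 0.05 there were 1 and 4 members, beside 2.57% and 3.33% of all genes. The median change of members was 0.0027 for both proteins. Nothing in the labels says that duplicates came from separate cultures, so p-values measure the spread between these libraries.

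DCTN5 came nearest. For G3BP1 it was at 2.27 and 2.07 in the untreated libraries and at 2.51 and 2.50 with AS, that is 2.17 ± 0.140 against 2.51 ± 0.00662 (SD, n = 2). For G3BP2 it was at 2.22 and 2.13 against 2.62 and 2.63. Both AS libraries were above both untreated ones for each protein. The limma change was 0.34 (95% interval 0.050 to 0.63, adjusted p = 0.996) for G3BP1 and 0.45 (0.26 to 0.64, adjusted p = 0.995) for G3BP2. Its rRNA-depleted ratio of AS to untreated was 1.20.

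KIF11, the motor that slides spindle poles apart, lay lower with AS. It was at 2.88 and 2.84 untreated and at 2.55 and 2.73 with AS for G3BP1 (limma change -0.22, interval -0.44 to 0.011), and at 2.81 and 2.91 against 2.53 and 2.64 for G3BP2 (-0.27, -0.46 to -0.088). The groups did not overlap for either protein, and the limma adjusted p was 0.996 and 0.995. DCTN1 was at 2.86 and 3.05 against 2.55 and 2.92 for G3BP1, which overlap, and at 2.76 and 2.94 against 2.37 and 2.65 for G3BP2 (-0.34, -0.65 to -0.028, limma adjusted p = 0.995).

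The intervals differed in width among members. The limma difference of KIF5C was -0.0071 (-0.15 to 0.14) for G3BP1 and 0.028 (-0.096 to 0.15) for G3BP2, and that of KIF1A 0.018 (-0.072 to 0.11) and -0.0071 (-0.079 to 0.065). DYNC1H1 was at 3.42 and 3.44 untreated and 3.64 and 3.49 with AS for G3BP1, a change of 0.14 (-0.014 to 0.29). KIF5B had wider intervals, -0.41 to 0.53 for G3BP1 and -0.14 to 0.53 for G3BP2, and so had DYNLL2, with -0.45 to 0.64 for G3BP1. Changes of any size within these bounds are compatible with the values.

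The order of the 4 libraries was also compared. Both AS libraries were above both untreated ones for 10 of 63 members with G3BP1 and 13 with G3BP2, beside 13.3% and 14.7% of all genes, and below them for 9 and 13, beside 14.5% and 15.6%. For both proteins together 7 were above, namely DCTN5, DYNLRB1, KIF13A, KIF18A, KIF3C, KIF4A and KIF9, beside 3.88% of genes. KIF11 and KIF3B were below in both, 2 of 63 beside 4.26%. The interaction of AS with protein and the contrast of G3BP2 with G3BP1 called 0 members in limma, and 0 were under an unadjusted p of 0.05, beside 0.748% and 1.22% of all genes. The difference between replicates 1 and 2 correlated between the proteins, at 0.61 untreated and 0.54 with AS over 14268 genes, so that agreement of the proteins is not independent evidence. KIF2C was lower with AS for G3BP1 (2.40 and 2.36 against 2.15 and 1.59), with a limma change of -0.51 (-1.04 to 0.021). For G3BP2 it was at 2.23 and 2.24 against 2.34 and 2.25, a change of 0.058 (-0.15 to 0.27). The limma interaction was 0.57 (-0.013 to 1.15, adjusted p = 0.999998).

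**Figure D5:**
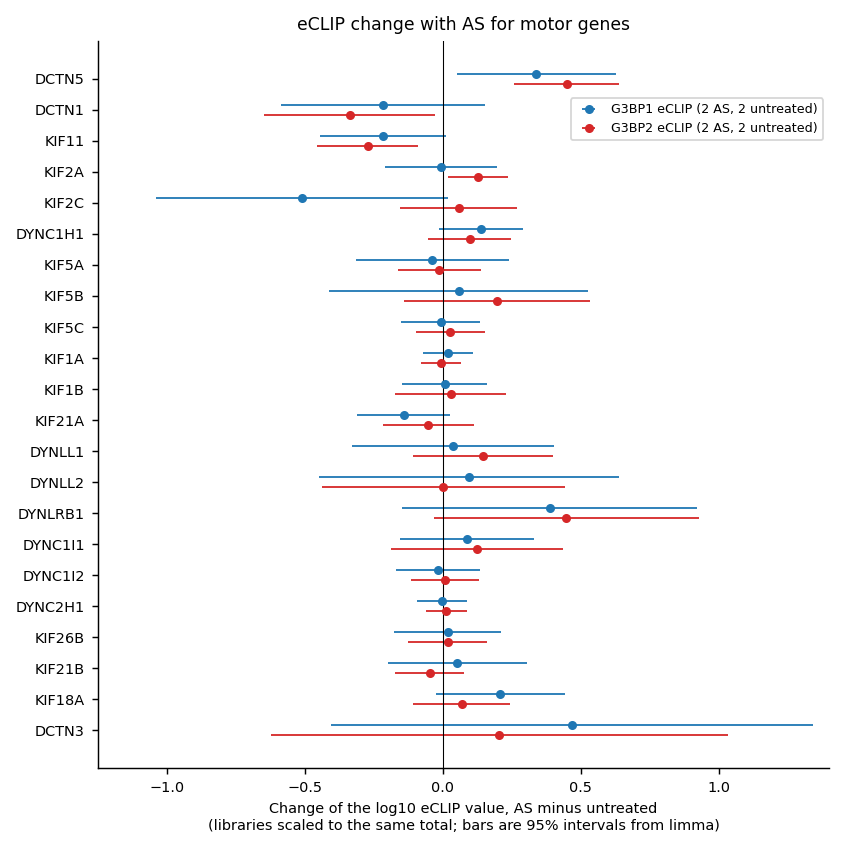
Change of the log10 eCLIP value with AS (horizontal axis, AS minus untreated, libraries scaled to the same total) for 22 members, G3BP1 in blue and G3BP2 in red, 2 AS and 2 untreated libraries each; points are limma estimates and bars 95% intervals. The DCTN5 intervals lie above 0 for both proteins (0.34 and 0.45), that of KIF11 lies below 0 for G3BP2 (-0.27), and those of KIF5C and KIF1A are narrow and span 0, with no adjusted p under 0.05.

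Other genes of the transport machinery, 37 in number, comprised the kinesin light chains, further kinesins, cargo adaptors such as TRAK, HOOK and BICD proteins, LIS1 and NDE regulators, and the actin-related and capping subunits of dynactin. Of 35 that reached 1 TPM in Total or SG, 22 were SG-enriched (62.9%) and 0 SG-depleted, beside 62.9% and 9.45% of all genes. The median log2 fold of the 35 was 1.77. In the knockdowns, 1 of 34 was above 2 with siG3BP1 and 0 below 0.5, beside 2.53% and 3.69% of all genes. With siG3BP2 1 of 33 was above 2 and 1 below 0.5, beside 2.43% and 5.62%. With AS in the rRNA-depleted libraries, 2 of 35 were above 2 and 2 below 0.5, beside 7.68% and 1.43%.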

How the data were processed

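Members and lists were chosen with earlier results of these data known. Reads of the siCtrl, siG3BP1, siG3BP2, Total and SG libraries were aligned by the authors to GRCh38 with HISAT2 2.1.0, and TPM from StringTie were deposited. For the rRNA-depleted libraries they deposited values under a TPM header, which are treated as RPKM here because value times annotated length was a whole number of reads within 0.02 for 100% of untreated and 99.9993% of AS transcripts above 0, scaled by 13.3 (untreated) and 11.3 (AS) times 1e6 reads. The deposited eCLIP values are log10 of a whole number plus 1, after fastp, STAR, CLIPper and a normalization to SMInput, and whether the number itself includes that last step is not given in the sources used here. The SMInput libraries were not analysed here. Some sequence windows are not reported here. Names, lengths and motif matches came from GENCODE 44 on GRCh38, another release than the authors' 41. Overlapping genes and paralogs can exchange reads.

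Ratios used thresholds of 2 and 0.5 and a minimum of 1. Beyond a fixed set of motors, named genes were the 3 highest in siCtrl per role, and members past each rule or, above 10 of these, the 5 largest and 5 smallest folds above 10 TPM (rRNA-depleted, above 5). KIF1A, KIF5C and others near a bound, and DCTN5, KIF11, KIF2C and KIF3B in eCLIP, were added after their values were seen. eCLIP used limma 3.58.1 (R 4.3.3) with a trend, over genes above 0 in at least 2 libraries, and the code was tested on simulated data. Other steps used Python 3.11.15 and scipy 1.17.1. Alternatives covered pseudocounts, folds, minimums, scaling, transcripts and left-out eCLIP libraries.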

Additional observations from a re-analysis of the deposited data

Results flagged for a closer look

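DYNC2H1 stood on opposite sides of siCtrl in the 2 knockdowns, with a ratio of TPM of 2.12 in siG3BP1 and 0.379 in siG3BP2. Each value rests on 1 library, both share the siCtrl library at 1.13 TPM, and the difference was not tested. On TPM + 1 neither value passed 2-fold.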

How the results depend on the processing

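The SG-enriched count was between 28 and 40 and the SG-depleted count was 6 or 7 under the alternatives, except that with SG rescaled to the median ratio 13 members were depleted and KIF2C changed sign, to -0.40 on the log2 scale. Beside the 40, at a pseudocount of 0.1, stood 65.8% of all genes, and beside the 28, with SG rescaled, 35.3%. For the 6 depleted at a fold of 4 it was 3.97%, and for the 13 it was 25.6%. With siG3BP1, higher members numbered 4 and lower ones 2 of 54 at a fold of 1.5, beside 5.57% and 8.86% of all genes. Without a minimum they again numbered 4 and 2, of 64, beside 6.77% and 7.07%. Higher ones numbered 0 of 38 above 10 TPM and 0 of 54 on TPM + 1, beside 0.622% and 1.12%. With siG3BP2, higher members numbered 1 of 54 at a fold of 1.5 and 1 of 64 without a minimum, beside 4.94% and 5.98% of all genes. Lower ones numbered 7 of 54 at a fold of 1.5 and 1 of 38 above 10 TPM, beside 13.5% and 2.07%. For Total against siCtrl, above 10 TPM, 0 of 38 members were higher and 12 lower, beside 1.39% and 20.5% of all genes. With AS in the rRNA-depleted libraries, 6 of 53 members were higher at a fold of 1.5, beside 21.2% of all genes. Without a minimum 3 of 64 were higher and 3 lower, beside 12.6% and 4.14%. In these cases the threshold itself sets which genes can be called.

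For eCLIP, 0 members were called by limma under each scaling, filter and left-out library in the 4 tests, some of these for the contrasts between proteins having been added after seeing the data. With 1 library left out, 1 group keeps 1 library and has no spread of its own, so unadjusted counts of these fits are not given. With the replicate block, 0 members were called in all 4 tests. At an unadjusted limma p under 0.05 there were 3 of 63 members for G3BP1 and 5 of 63 for G3BP2. Over all genes there were 629 of 18888 and 689 of 19035. The difference between replicates 1 and 2 correlated between treatments at 0.20 for G3BP1 and 0.14 for G3BP2 over 14268 genes, and between proteins at 0.61 untreated and 0.54 with AS. With a replicate block within each treatment, added after seeing the data, the interaction and the contrast of the proteins called 0 members. At an unadjusted limma p under 0.05 there was 1 member each, beside 0 without the block. Of all 19259 genes there were 358 and 652, beside 144 and 235 without the block. Single RNA-seq libraries, isoform-shared reads and 2 eCLIP libraries per group set the limits of these values.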
